A study of Mus musculus with 4 samples.

Results

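The genes described here encode the respiratory chain and ATP synthase of the mitochondrial inner membrane, measured in pancreatic islets of 4 groups of mice. Members were the genes whose array name starts with Ndufa, Ndufb, Ndufc, Ndufs or Ndufv and a number, Uqcr, Cox4 to Cox8 or Atp5, together with Sdha, Sdhb, Sdhc and Sdhd. This rule used names and no measured difference, though the members were chosen with earlier results of these data known. It found 85 genes among 22393 named genes, with 37 in complex I, 4 in complex II, 8 in complex III, 19 in complex IV and 17 in complex V. Of the 85, 3 carry a matching name without being subunits: Cox4nb (now Emc8), Atp5s (now Dmac2l) and Atp5sl (now Dmac2).

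All mice were C57BL/6 and aged 24 weeks. One group held wild-type males (male WT). The second held male transgenic mice, described in the labels as diabetic (male Tg). In the third, male transgenic mice carried an implant named E2, the usual short form of estradiol, for 6 weeks (male Tg E2). The last held female transgenic mice (female Tg). No female wild-type group was included, so the parts of sex and transgene in the female values cannot be told apart. The labels name neither the transgene nor its promoter, and give no number of mice behind an array. Islets were freed with collagenase, separated on a density gradient and picked by hand. Each group was hybridised to 1 array, so no difference below has a replicate check or a p-value.

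The respiratory chain passes electrons from NADH (complex I) and succinate (complex II) through complex III and cytochrome c to oxygen at complex IV. Complexes I, III and IV pump protons, and complex V, ATP synthase, uses the gradient to make ATP. In the beta cell the ATP made from glucose closes a potassium channel and so couples glucose to insulin release. Nuclear genes encode most subunits and mitochondrial DNA encodes a few core ones. Several complex IV subunits exist in a widely expressed form and a form best known from heart and skeletal muscle, among them Cox6a1 and Cox6a2, and Cox7a2 and Cox7a1.

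A level is the log2 intensity of a probe minus log2 of the 75th percentile of its array. A difference is the first group's level minus the second's. Levels of different probes are not compared, since each probe binds with its own efficiency. The error quoted is the scanner's error model for 1 difference, whose median over members was 0.20 log2 in each of the 4 comparisons. It covers spot measurement only and not the spread between mice. A gene was measured in a comparison when its probe was well above background on both arrays, and it was called when the groups differed at least 2-fold (1 log2 unit).

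Many other genes differed between the groups. Relative to male WT, the male Tg array was at least 2-fold higher for 2230 and at least 2-fold lower for 1304 of 14406 measured genes. Of 11 markers of acinar cells, the enzyme-secreting cells around the islets, 11 were at least 2-fold higher there. The summed acinar level was 9.56 on male WT, 13.31 on male Tg, 12.59 on male Tg E2 and 9.69 on female Tg. All 8 lymphocyte, 8 macrophage and 6 stromal markers were above background on every array, with median differences of 3.39, 1.16 and 3.95. Of 10 beta cell markers 6 were at least 2-fold lower and none was at least 2-fold higher. In whole islets, fewer cells of a type and less RNA per cell cannot be told apart. The part of these cell types in the differences below was not tested.

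The results turn on 2 pairs of complex IV isoforms, so the start of the probe that reads each gene is shown. Each line gives the first 30 of 60 bases, with the place of the probe on the mm9 genome in the sentences after it.
Cox6a2 probe: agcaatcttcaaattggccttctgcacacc
Cox6a1 probe: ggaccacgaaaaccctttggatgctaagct
Cox7a1 probe: acaacgtcctgtacagactgaccatgacgc
Cox7a2 probe: ctttggggatcaatatttattgatgtgtat
The Cox6a2 probe lies at chr7:135349160-135349219 on the minus strand and the Cox6a1 probe at chr5:115795726-115795785 on the minus strand. The Cox7a1 probe lies at chr7:30970337-30970948 on the plus strand, a span longer than the probe, and the Cox7a2 probe at chr9:79603215-79603274 on the minus strand. The longest run of bases that the Cox6a2 and Cox6a1 probes share on either strand is 6, and it is 6 for the Cox7a1 and Cox7a2 probes too. The position of each probe within exons and untranslated regions was not worked out here.

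The family as a whole differed little between the islet groups, and 2 muscle-type isoforms of complex IV stood far outside the rest. Cox6a2 was 15.9-fold lower on male Tg than on male WT, and Cox7a1 was 3.26-fold higher. Both genes lay nearer their male WT level on the E2-implanted male array and on the female transgenic array. For Cox7a1 these 2 arrays lay below male WT, the female one by -0.98 log2. In male Tg over male WT, 1 of 82 measured members was at least 2-fold higher, against 15.5% of all measured genes, and 2 were at least 2-fold lower, against 9.05%. Cox7a1 was the member above, and Cox6a2 was the farther of those below.

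Cox6a2 encodes the heart and muscle form of subunit VIa, a regulatory subunit of complex IV. Its level was 5.83 on male WT, 1.83 on male Tg, 3.60 on male Tg E2 and 4.84 on female Tg. As scanner intensities these are 23261, 817, 4095 and 8428. Male WT was highest and male Tg lowest, with the E2-implanted and female arrays between them. Male Tg minus male WT was -3.99 ± 0.20 log2 (scanner error, 1 array a group). Male Tg E2 minus male Tg was 1.77, a 3.41-fold higher level, and female Tg minus male Tg was 3.01, an 8.06-fold higher level. The E2-implanted array remained 4.67-fold below male WT and the female array 1.98-fold below it.

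Cox6a1, the widely expressed form of the same subunit, read 7.99, 8.26, 8.02 and 7.83 in the same order of arrays. Its difference was 0.27 for male Tg over male WT, which turned to -0.39 under quantile normalization, so its direction is not settled. The difference in Cox6a2 minus that in Cox6a1 was -4.26 ± 0.29 log2, a 19.2-fold shift of one isoform against the other. The same quantity was 2.01 between male Tg E2 and male Tg, 3.44 between female Tg and male Tg, and -2.25 between male Tg E2 and male WT. The -4.26 became -3.59 under quantile normalization.

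Some beta cell markers moved beside Cox6a2 and others did not. Of the 10 beta cell markers, 7 were below 0 in male Tg over male WT, against 61.5% of all measured genes, and 3 above. Set against male Tg, 3 markers were below 0 on the E2-implanted array (39.6% of all measured genes) and 3 on the female array (41.8%). The 2-fold calls were more one-sided. On the E2-implanted array 3 of the 10 were called higher than male Tg and none lower, where all measured genes gave 2.61% and 7.92%. On the female array 4 were called higher than male Tg and none lower, where all measured genes gave 3.63% and 8.44%. Ucn3, a peptide of mature beta cells, read 6.23, 1.83, 3.76 and 5.02, and Nkx6-1, a beta cell transcription factor, read 6.13, 3.99, 5.11 and 5.43. In both, male WT was highest and male Tg lowest. With the scaling used here the insulin genes went the other way in male Tg over male WT, Ins1 by 0.65 and Ins2 by 0.71. Their values under other scalings are not given here, so their direction is not settled. The summed level of the 10 beta cell markers, to which the insulin genes contribute, was 11.20, 11.53, 11.18 and 11.11. Before scaling, the summed intensities were 965174, 678025, 781719 and 648266, lower on male Tg than on male WT. Of 14 striated muscle markers, 4 were above background on male WT and 3 on each other array. The muscle enzyme gene Ckm, the myoglobin gene Mb and the myosin genes Myh1, Myh2 and Myh4 were above background on no array. The summed level of the 14 was -0.35, 0.75, -0.05 and 0.26.

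Cox7a1 encodes the heart and muscle form of subunit VIIa, which sits where complex IV monomers meet. Its level was 2.03 on male WT, 3.73 on male Tg, 1.78 on male Tg E2 and 1.05 on female Tg. Male Tg was highest and female Tg lowest. Male Tg minus male WT was 1.70 ± 0.20 log2. Against male Tg, male Tg E2 differed by -1.95 (3.86-fold lower) and female Tg by -2.68 (6.42-fold lower). The E2-implanted array differed from male WT by -0.24, little more than the scanner error, whereas the female array was 1.97-fold below male WT.

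Cox7a2, the widely expressed form, read 4.89, 4.90, 4.71 and 4.74, an almost flat profile. The difference in Cox7a1 minus that in Cox7a2 was 1.69 ± 0.29 log2 between male Tg and male WT. It was -1.76 between male Tg E2 and male Tg, -2.53 between female Tg and male Tg, and -0.07 between male Tg E2 and male WT. Cox7a2l, a relative of Cox7a2 that helps complexes III and IV associate, read 6.90, 6.38, 6.73 and 6.70. It was lowest on male Tg, and its 3 probes gave -0.52, -0.57 and -0.55 for male Tg over male WT.

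Some fat cell markers moved beside Cox7a1, which brown fat also expresses, and others did not. The adipokine gene Adipoq and the lipid droplet gene Plin1 were above background on male Tg only. Fabp4, a fatty acid binding protein, read 1.60, 3.29, 2.58 and 1.82, which left male Tg E2 0.99 above male WT. Cidea, a lipid droplet gene of brown fat, read -1.99, 0.28, 0.23 and 0.00, about as high on male Tg E2 as on male Tg. Cfd, another of the fat cell markers, had the largest differences from male Tg, -4.46 log2 on the E2-implanted array and -4.96 on the female array. It was not measured against male WT. All 3 fat cell markers measured against male Tg (Fabp4, Cidea and Cfd) were below 0 on both arrays, like Cox7a1. The number of the 6 fat cell markers above background was 2 on male WT, 5 on male Tg, 3 on male Tg E2 and 3 on female Tg, with summed levels of 1.75, 4.07, 2.90 and 2.25. Ucp1, the uncoupling protein that defines brown fat, was above background on no array. Smooth muscle and pericyte markers had summed levels of 4.07, 5.50, 4.79 and 4.17. Erythrocyte markers had summed levels of 6.65, 8.89, 5.51 and 7.12, highest on male Tg and below male WT on male Tg E2 like Cox7a1, but above male WT on female Tg. The striated muscle gene Tnni2 read -3.06, -0.29, -1.67 and -0.73, also highest on male Tg. The part of these cells in the Cox7a1 values was not tested.

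**Figure D1:**
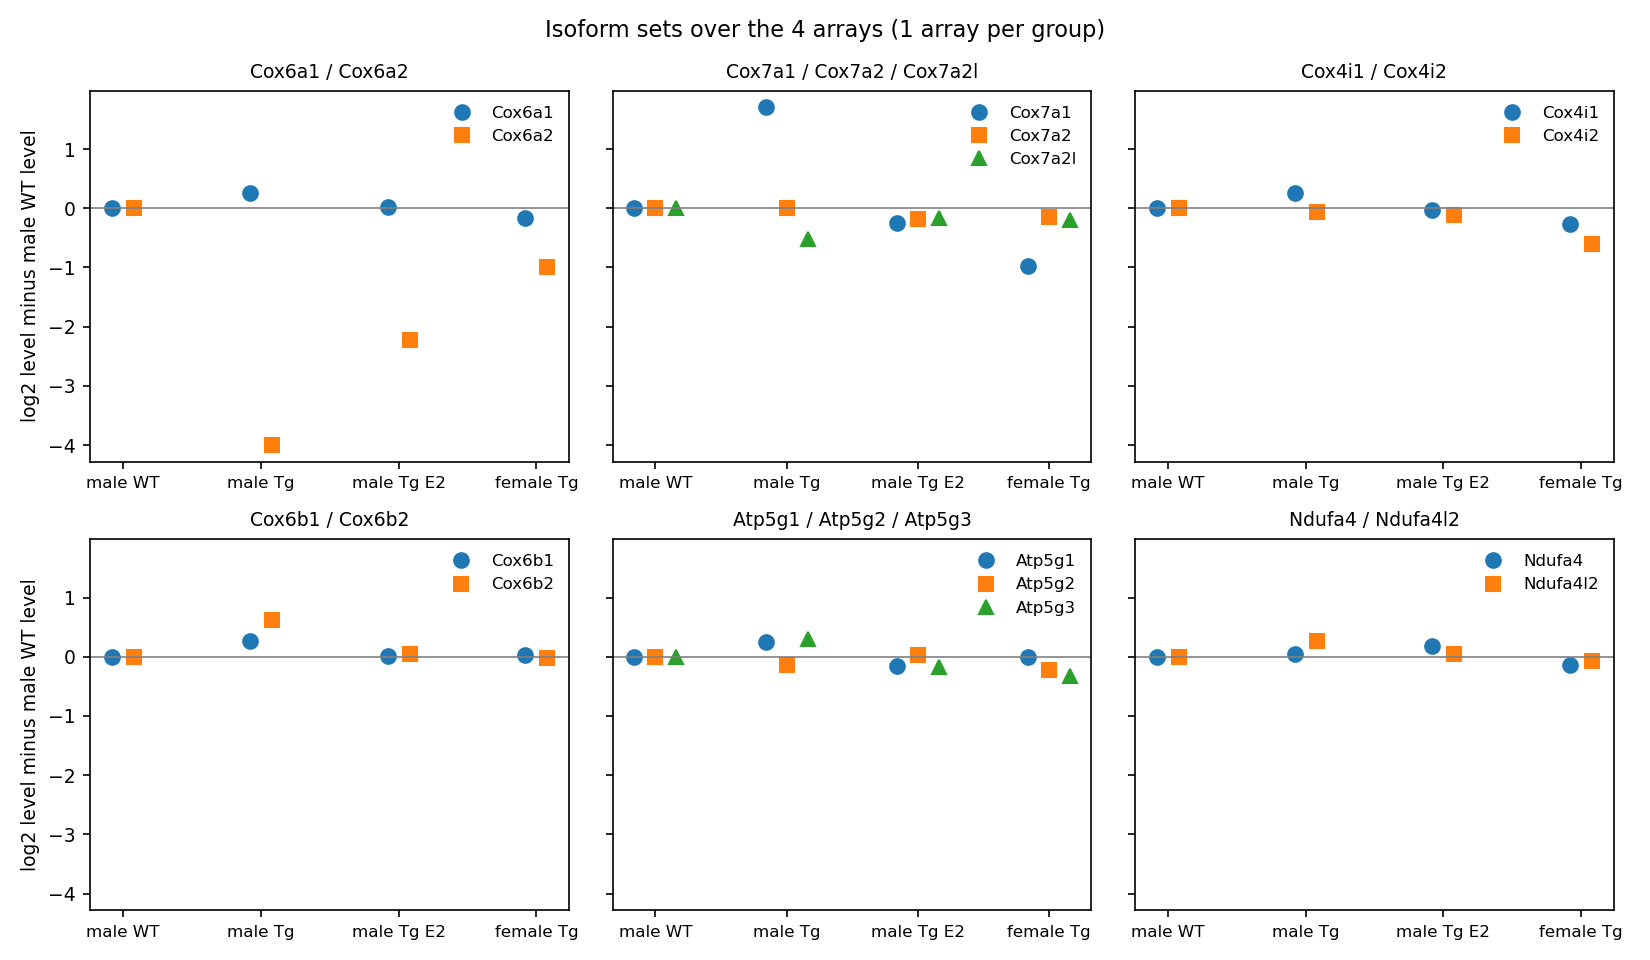
Level of each isoform minus its own level on the male WT array (log2 units, vertical axis) on the 4 arrays, for 6 isoform sets; each point is 1 array. Cox6a2 lies at -3.99 and Cox7a1 at 1.70 on male Tg, whereas Cox6a1 and Cox7a2 lie within 0.27 of their male WT level there.

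The other isoform sets stayed much closer together. Cox4i1, the main form of the subunit that binds ATP, read 6.61, 6.87, 6.58 and 6.36. Cox4i2, its form best known from lung, read -0.38, -0.45, -0.49 and -0.98. The 2 differed from each other by -0.32 ± 0.29 log2 in the male Tg over male WT difference. Cox6b1 read 2.60, 2.87, 2.61 and 2.62. Cox6b2, its testis form, read -1.70, -1.09, -1.65 and -1.72 and was highest on male Tg by 0.61 over male WT.

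The 3 Atp5g genes encode the same proton-carrying c subunit with different import peptides. Atp5g1 read 5.97, 6.21, 5.80 and 5.96, Atp5g2 read 6.97, 6.82, 6.99 and 6.75, and Atp5g3 read 6.04, 6.33, 5.87 and 5.72. For male Tg over male WT, Atp5g3 differed from Atp5g2 by 0.44 ± 0.29 log2 and Atp5g1 from Atp5g3 by -0.05. For male Tg E2 over male Tg the Atp5g3 to Atp5g2 value was -0.63. Ndufa4, listed here in complex I by name but now counted with complex IV, read 3.88, 3.93, 4.05 and 3.74. Its relative Ndufa4l2, a target of hypoxia signalling, read 0.62, 0.88, 0.68 and 0.55.

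Cox8b, the heart and muscle form of subunit VIII, was above background on male Tg and male Tg E2 only. Male Tg was at least 2.15-fold higher than male WT and male Tg E2 at least 1.54-fold higher. The bound sets the bright array against the lowest signal well above background on the dim array. Female Tg was at least 1.22-fold lower than male Tg. These signals were faint: Cox8b read -3.33 on male Tg and -3.81 on male Tg E2. The lowest signals well above background on those arrays were -3.72 and -3.91. The bounds do not include the scanner error. Cox7b2 and Cox8c, known from testis, were above background on no array.

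The members as a group varied less than the other genes of the array. In male Tg over male WT, 69 of 82 measured members lay within 0.5 log2 of no difference, against 44.9% of all measured genes and 49.8% of genes above the array median. The SD over members was 0.58, against 1.11 over all measured genes and 0.93 over genes above the array median. Cox6a2 and Cox7a1 made up much of that 0.58. Over the 74 measured members left after setting aside tissue isoforms and genes that are not subunits, the SD was 0.33. The median difference was -0.04 over members and -0.22 over all measured genes.

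**Figure D2:**
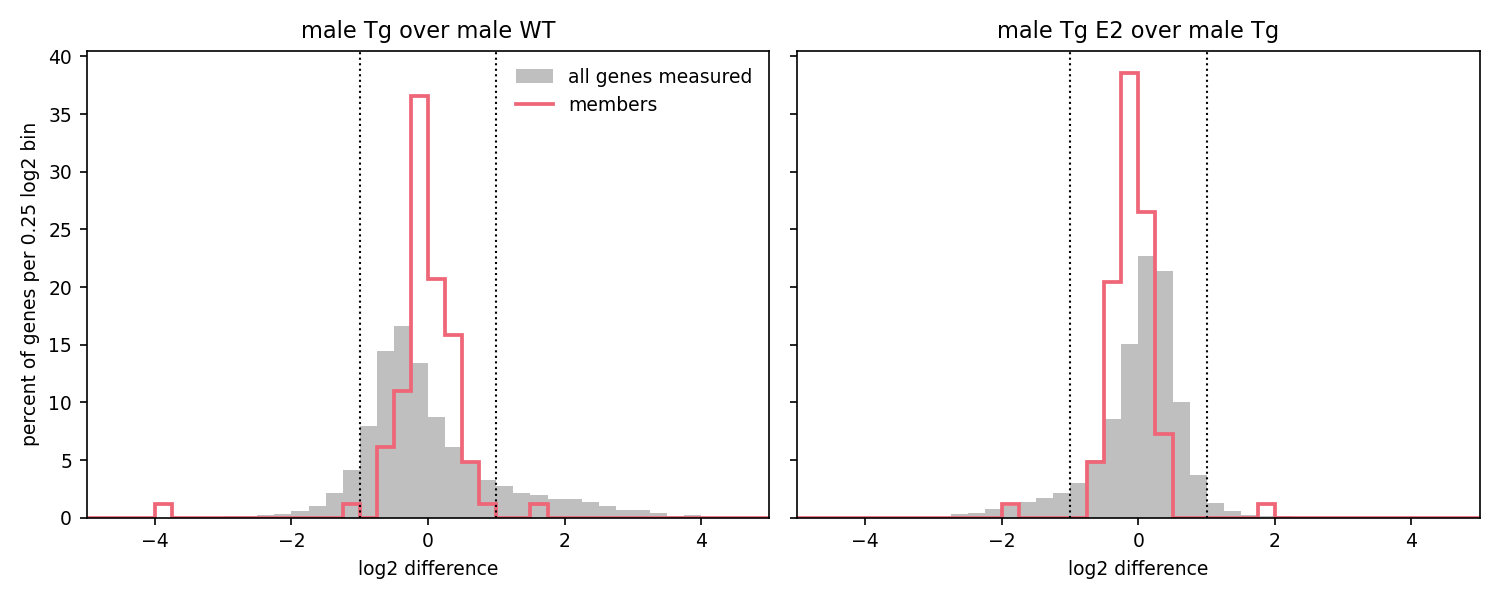
Percent of members (red line, 82 and 83 genes) and of all measured genes (grey, 14406 and 14639) in each bin of 0.25 log2 of the difference, for male Tg over male WT and male Tg E2 over male Tg; dotted lines mark 2-fold. Members are concentrated near 0, and the outermost red step on each side is Cox6a2 or Cox7a1.

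The same held in the other comparisons. In male Tg E2 over male Tg, 1 of 83 members was at least 2-fold higher (Cox6a2), against 2.61% of all measured genes, and 1 was at least 2-fold lower (Cox7a1), against 7.92%. In female Tg over male Tg, 1 of 82 was higher (Cox6a2), against 3.63%, and 1 was lower (Cox7a1), against 8.44%. In male Tg E2 over male WT none was at least 2-fold higher, against 8.77%, and Cox6a2 alone of 82 was at least 2-fold lower, against 2.68%. These comparisons share arrays and are not independent. Within 0.5 log2 of no difference lay 77 of 83 members in male Tg E2 over male Tg, against 67.7% of all measured genes. In female Tg over male Tg 66 of 82 did, against 63.2%, and in male Tg E2 over male WT 80 of 82, against 71.1%. Among genes above the array median these shares were higher, 72.6%, 68.4% and 78.3% in the same order. The median difference of members was -0.09, -0.16 and -0.11 in turn, and that of all genes was 0.13, 0.11 and -0.09. The female over male Tg median of members turned to 0.02 under quantile normalization.

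A smaller set of members exceeded the scanner error without reaching 2-fold. In male Tg over male WT, 7 members were higher and 7 lower by more than 2 scanner errors, and all 14 kept their direction under quantile normalization, median centring, the normexp background correction and the authors' processed values. Of all measured genes, 24.7% were higher and 36.5% lower by that measure. The higher members were Cox7a1, Cox5a, Cox7b, Atp5o, Cox6b2, Sdhb and Ndufa3. The lower members included Cox6a2, Sdha, Ndufs1, Cox8a, Atp5h and Cox7a2l. Of the 82 measured members, 41 took the opposite sign under at least 1 of those 4 settings, and none of these was among the 14.

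**Figure D3:**
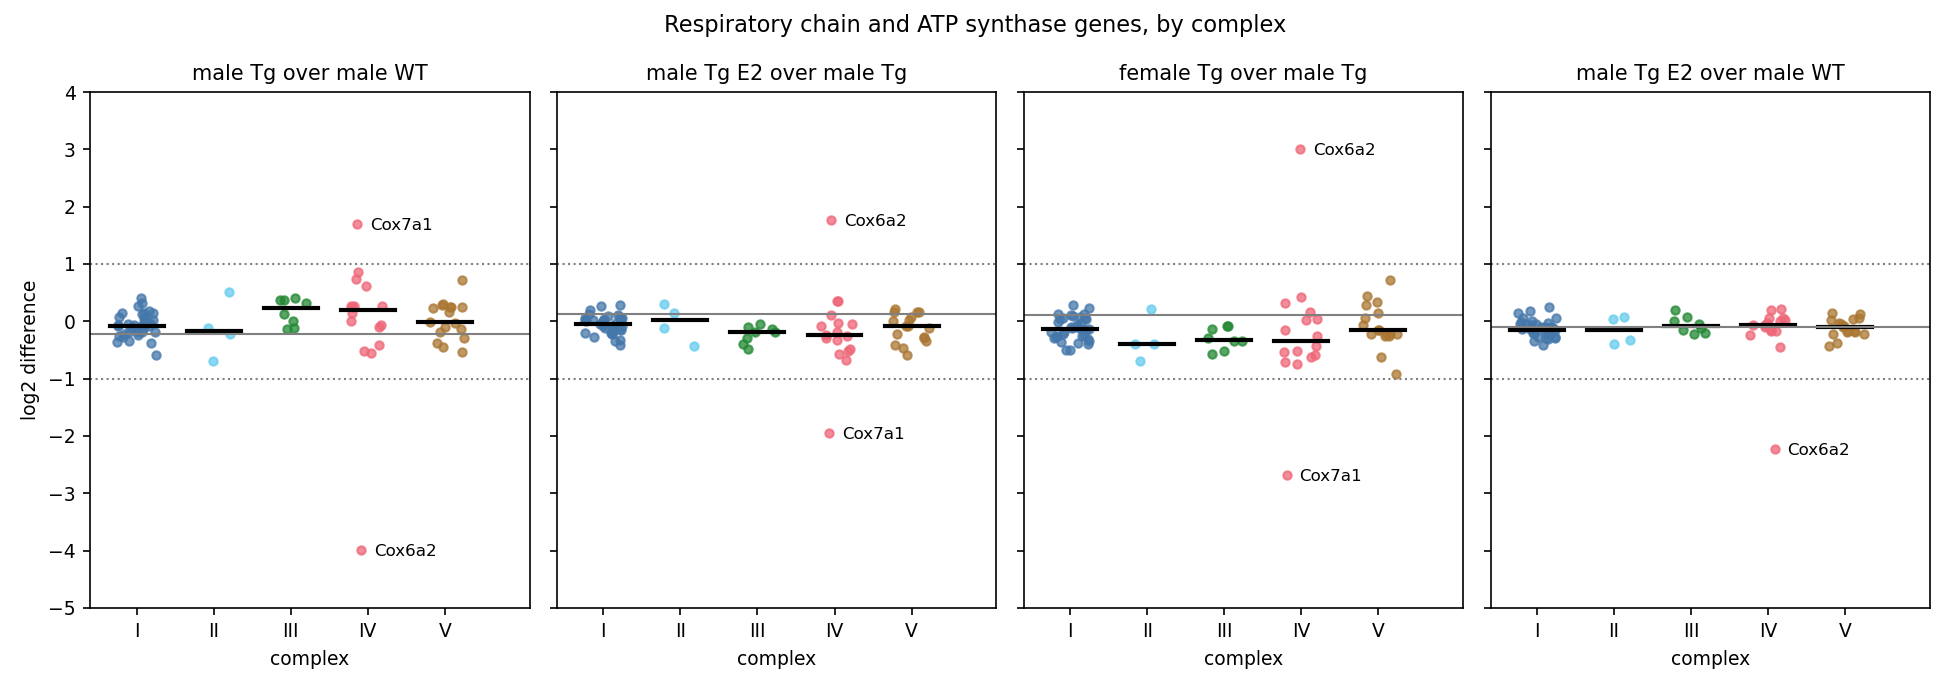
Difference of each member in log2 units (vertical axis), by complex, in the 4 comparisons; each point is a gene, black bars are medians over all measured genes of the complex, the grey line is the median of all measured genes and dotted lines mark 2-fold. Cox6a2 and Cox7a1 are the points beyond the dotted lines, and 1 gene is not drawn.

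Complex I takes electrons from NADH. All 37 of its members were measured, with a median of -0.08 in male Tg over male WT. Within 0.5 log2 of no difference lay 35 of them, against 44.9% of all measured genes. The 7 nuclear core subunits, which carry the flavin and iron-sulfur clusters and the quinone site, were all below 0, against 61.5% of all measured genes, with a median of -0.19, and 3 were below 0 after centring on the median of all genes. The 28 accessory subunits had a median of -0.07. Ndufs1, the largest core subunit, read 4.32, 3.73, 4.02 and 4.02, lowest on male Tg. Ndufa3, a small accessory subunit, went the other way, with 5.70, 6.11, 5.70 and 5.61 and a difference of 0.41.

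Several other core subunits were nearly level over the arrays. Ndufv1, which holds the flavin, read 5.28, 5.21, 5.08 and 5.03, and its partner Ndufv2 read 4.50, 4.31, 4.35 and 4.29. The iron-sulfur subunits Ndufs7 and Ndufs8 read 5.50, 5.40, 5.20 and 5.28, and 2.44, 2.16, 2.21 and 2.26. Ndufs3, of the quinone module, read 5.26, 5.07, 5.07 and 5.06. Among accessory subunits, Ndufb9 read 5.80, 5.93, 5.66 and 5.43 and had the lowest complex I value in female Tg over male Tg, -0.50. Ndufa1 read 6.20, 6.53, 6.45 and 6.14 and had the highest complex I value in male Tg E2 over male WT, 0.25.

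Complex II oxidises succinate and is also an enzyme of the citric acid cycle. Its 4 subunits did not share a direction. Sdha, which holds the flavin, read 4.68 on male WT, 3.98 on male Tg, 4.28 on male Tg E2 and 4.20 on female Tg. Sdhb, the iron-sulfur subunit bound to it, read 5.34, 5.86, 5.42 and 5.17. Sdha was lowest on male Tg, where Sdhb was highest. The difference in Sdha minus that in Sdhb was -1.21 ± 0.29 log2 in male Tg over male WT. Both Sdhb probes gave similar values, 0.51 and 0.50. The membrane anchors Sdhc (3.81, 3.59, 3.48, 3.19) and Sdhd (5.04, 4.93, 5.07, 4.53) were lowest on female Tg.

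Complex III passes electrons from quinol to cytochrome c. Its 8 members had a median of 0.23 in male Tg over male WT, which was 0.03 under quantile normalization. All 8 were below 0 in male Tg E2 over male Tg (median -0.19), against 39.6% of all measured genes. All 8 were below 0 in female Tg over male Tg too (median -0.32), against 41.8%. Under quantile normalization 7 and 5 of them were. None differed by more than 2 scanner errors in male Tg over male WT. Of all measured genes, 24.7% were higher and 36.5% lower by that measure there. Uqcrfs1, the Rieske iron-sulfur protein, read 3.88, 4.21, 4.08 and 3.69. Uqcrc1, a core protein, read 2.42, 2.80, 2.32 and 2.45. Uqcrq, a small membrane subunit, read 6.23, 6.63, 6.23 and 6.05, and its second probe gave 0.04 where the first gave 0.40. Uqcrb read 5.20, 5.09, 5.05 and 5.01. Uqcrc2, the other core protein, was spotted 10 times and read 4.78, 4.65, 4.55 and 4.35, with an SD over spots of 0.02 to 0.05 on each array.

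Complex IV held the widest range of any complex. Its 11 measured subunits other than the tissue isoforms had a median of 0.26 in male Tg over male WT, which was 0.06 under quantile normalization. Cox5a, a subunit on the matrix side, read 5.08, 5.94, 5.27 and 5.23, a difference of 0.87 ± 0.20 log2. Cox7b, a small membrane subunit, read 4.93, 5.67, 5.15 and 5.08, a difference of 0.74. Both were highest on male Tg, with the other 3 arrays close together. Cox8a, the widely expressed form of subunit VIII, was lowest on male Tg at 7.62, 7.06, 7.17 and 7.49, with male Tg E2 near male Tg, and its probes gave -0.56 and -0.49. The difference in Cox8a minus that in Cox5a was -1.43 ± 0.29 log2. Cox5b, which binds zinc on the matrix side, read 5.56, 5.82, 5.50 and 5.07 and was lowest on female Tg, by -0.75 against male Tg. That probe is placed on chromosome 15, and the second Cox5b probe, placed on chromosome 1, gave -0.71.

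Complex V makes ATP. Its 17 members had a median of -0.02 in male Tg over male WT. Atp5o, the subunit that joins the peripheral stalk to the catalytic head, read 2.999, 3.72, 3.13 and 2.79, a difference of 0.72 ± 0.20 log2. Atp5h, subunit d of the same stalk, read 6.52, 5.99, 6.15 and 6.43, a difference of -0.53, but its second probe gave 0.01. The catalytic head subunits Atp5a1 (5.89, 5.50, 5.66, 5.57) and Atp5b (6.63, 6.87, 6.60, 6.62) gave -0.38 and 0.24, and the Atp5b value turned to -0.07 under quantile normalization. Atp5c1, the rotating shaft, read 5.50, 5.73, 5.65 and 5.51. Atp5l, subunit g of the membrane part, read 6.84, 6.54, 6.76 and 6.83. Atp5s, which is no subunit of the enzyme, read -1.89, -2.33, -2.32 and -1.62, and its male Tg over male WT value of -0.44 turned to 0.05 with normexp. No complex V member was called in any of the 4 comparisons. Of all measured genes, 2.61% to 15.5% were called higher and 2.68% to 9.05% lower, depending on the comparison.

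**Figure D4:**
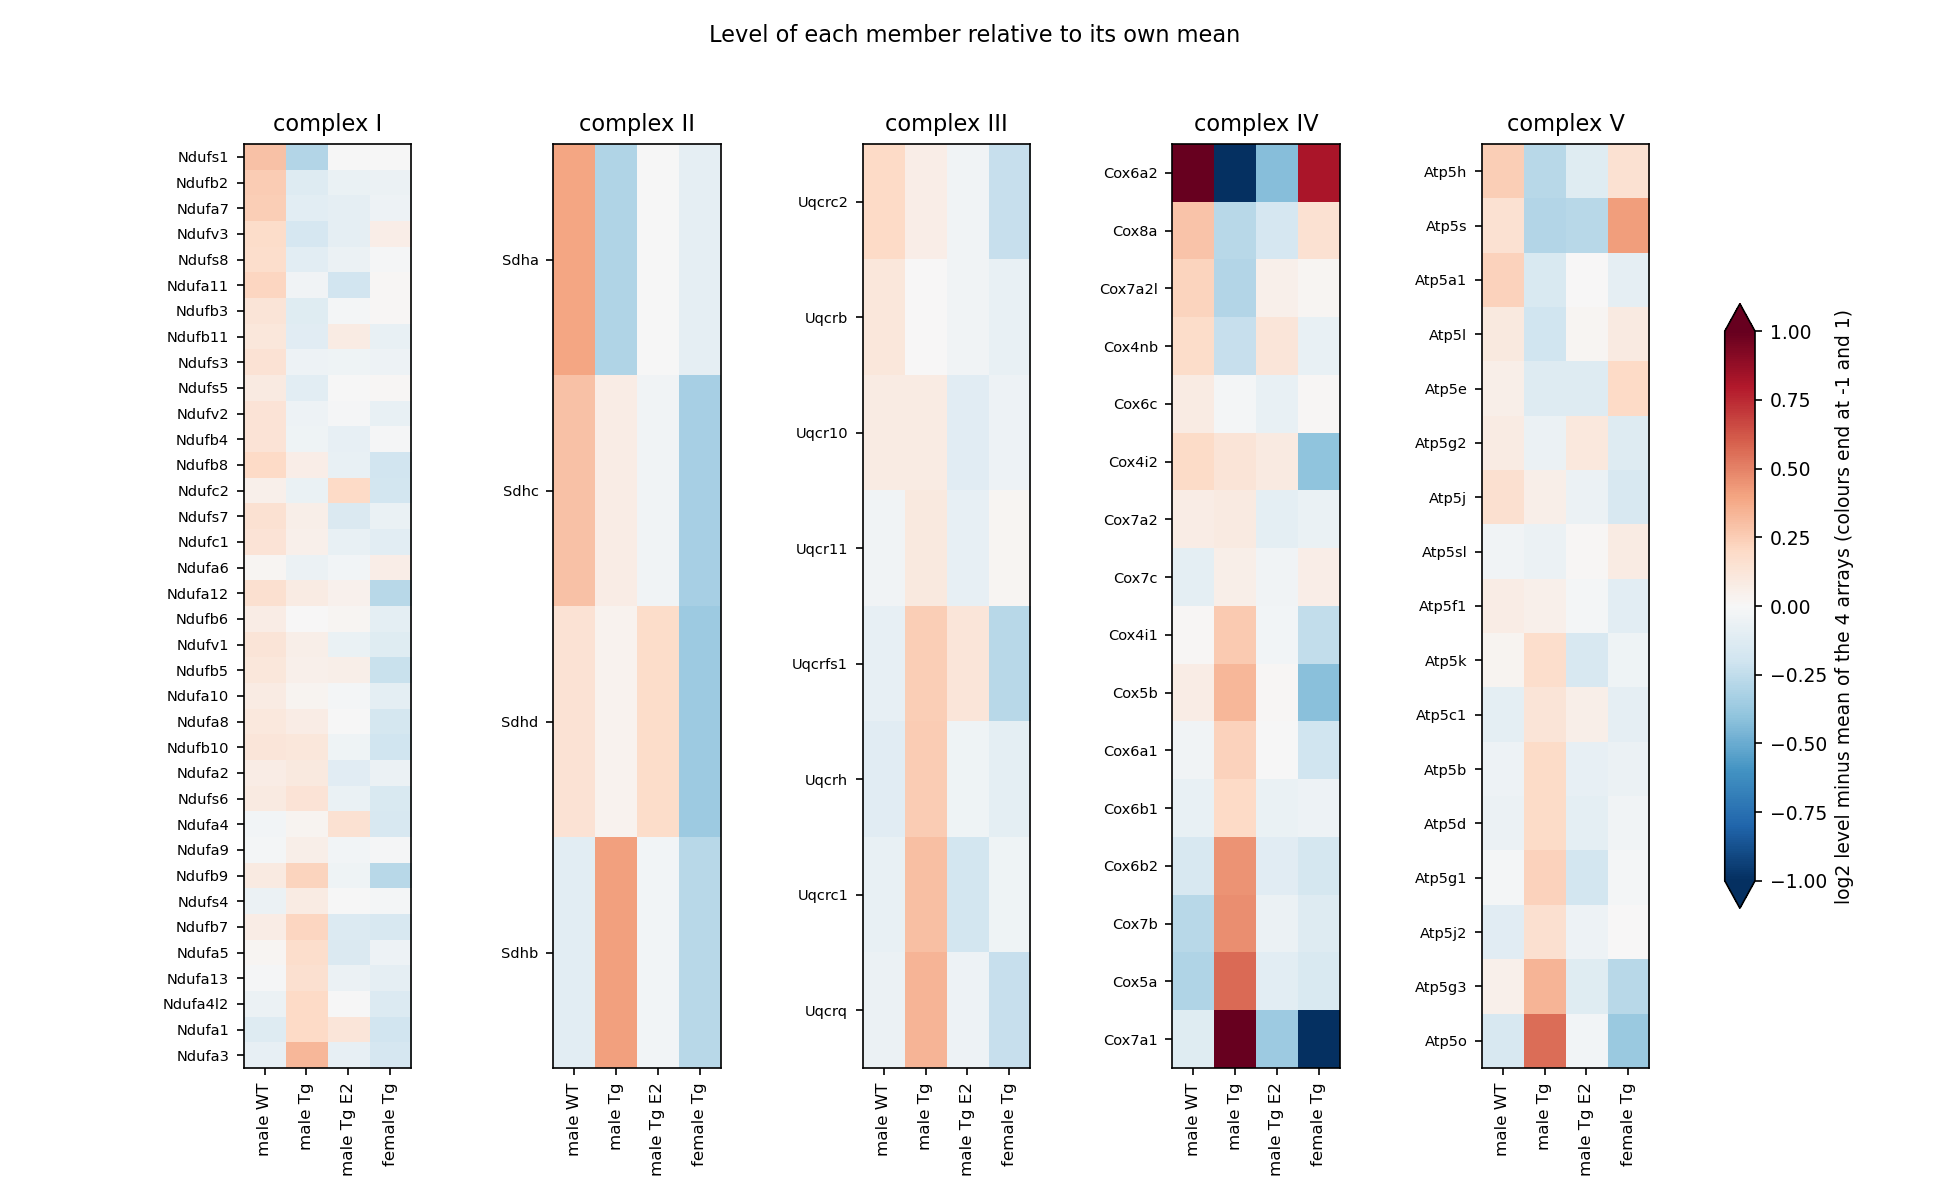
Level of members measured on all 4 arrays, with 1 gene not drawn, minus that member's mean over the arrays (log2 units, colour; colours end at -1 and 1), by complex, with genes ordered by the male Tg over male WT difference. Cox6a2 and Cox7a1 reach the ends of the colour scale, and genes at the foot of each panel are highest on male Tg.

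Across the 82 members measured on all 4 arrays, male WT was the highest array for 39 and male Tg for 34. Male Tg E2 was highest for 4 and female Tg for 5. Over all genes measured on 4 arrays these shares were 44.1%, 25.2%, 13.2% and 17.6%. Female Tg was the lowest array for 38 members, whereas over all genes it was lowest for 21.2%. These orders depend on the scaling, and they are not given here under other scalings. Of the 82 members, 57 were lower on female Tg than on male Tg. Under quantile normalization 40 were lower and 42 higher, so a lower level of the members on female Tg is not settled. The median range of a member over the 4 arrays was 0.34 log2, against 0.69 over all genes. Cox6a2 had a range of 3.99 and Cox7a1 2.68, the widest of all members, and Atp5o had 0.93.

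The subunits encoded by mitochondrial DNA were all measured. Their median difference was -0.13 in male Tg over male WT, and 1 of 13 was at least 2-fold higher, a smaller share than the 15.5% of all measured genes. That gene was ND6, the only one of them on the other strand of mitochondrial DNA, which read -0.93, 0.34, -0.39 and -0.04. The complex IV genes COX1, COX2 and COX3 differed by 0.22, 0.41 and 0.19, and the complex I genes ND1, ND4 and ND5 by -0.48, -0.28 and -0.47. In male Tg E2 over male Tg all 13 were below 0, against 39.6% of all measured genes, with a median of -0.30 against 0.13. Values of this list under other scalings are not given here.

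Genes that serve the complexes without matching the name rule were read as lists. Of 6 further subunits or partners, none was called in male Tg over male WT. Cycs, cytochrome c, read 4.36, 5.16, 4.36 and 4.22, highest on male Tg like Cox5a. Cyc1, the cytochrome of complex III, read 4.46, 4.75, 4.34 and 4.07. Of 37 measured assembly factors, 31 were below 0 in male Tg over male WT, against 61.5% of all measured genes, with a median of -0.45 against -0.22. The share at least 2-fold lower was no larger than the 9.05% over all measured genes, and the 3 genes were Uqcc2 (-1.36), which the array calls 2900010M23Rik and which serves complex III, Lrpprc (-1.10), which stabilises mitochondrial messages, and Nubpl (-1.03), which inserts iron-sulfur clusters into complex I. Sco2, a copper chaperone of complex IV, was the 1 factor at least 2-fold higher, against 15.5% of all measured genes, and read 1.95, 2.95, 1.78 and 1.74.

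Of 16 measured regulators of mitochondrial gene expression, 13 were below 0 in male Tg over male WT, against 61.5% of all measured genes, with a median of -0.46 against -0.22. The 1 called higher and the 1 called lower are smaller shares than the 15.5% and 9.05% over all measured genes. Ppargc1a, the coactivator that drives mitochondrial biogenesis, was the gene called higher, and it read -0.11, 1.08, -0.39 and -1.53. Esrra, the nuclear receptor it works with, read 2.91, 3.50, 2.79 and 2.37. Both were highest on male Tg and lowest on female Tg. Tfam, which packages mitochondrial DNA, read 1.74, 1.16, 1.51 and 1.69, and Nrf1, a transcription factor of subunit genes, read 0.73, 0.08, 0.50 and 0.57. Esrrg, a relative of Esrra, was the gene called lower, by -1.10. Of 8 measured carriers none was called, and Slc25a4 and Slc25a5, which exchange ADP for ATP, gave -0.65 and 0.42.

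**Figure D5:**
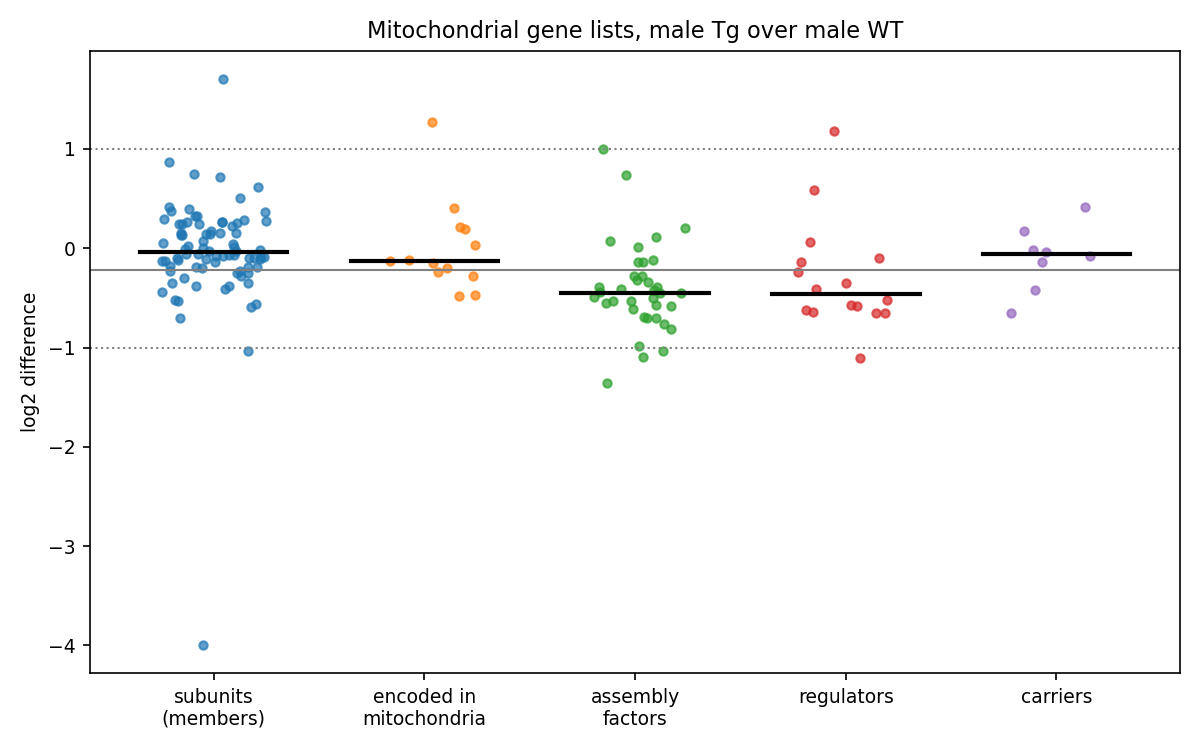
Difference in log2 units for male Tg over male WT (vertical axis) of the members and of 4 other lists; each point is a gene, black bars are medians, the grey line is the median of all measured genes and dotted lines mark 2-fold. The median is -0.04 for members, -0.13 for genes encoded in mitochondria, -0.45 for assembly factors, -0.46 for regulators and -0.06 for carriers.

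Promoter sequence is shown for the isoform genes that the RefSeq table (GRCm38.p6) holds, since the isoforms of a pair differed so much in their values. The table gives 250 bases before and 50 after the start of a gene, and 69 of the 85 members have at least 1 entry, 75 in all. Cox6a2 has none there. Capitals mark motifs found on either strand: GCGCATGCG, the core of the NRF1 motif, CCGGAAG of the ETS family, ATGGCGG of YY1 and the E box CACGTG.
Cox6a1 promoter: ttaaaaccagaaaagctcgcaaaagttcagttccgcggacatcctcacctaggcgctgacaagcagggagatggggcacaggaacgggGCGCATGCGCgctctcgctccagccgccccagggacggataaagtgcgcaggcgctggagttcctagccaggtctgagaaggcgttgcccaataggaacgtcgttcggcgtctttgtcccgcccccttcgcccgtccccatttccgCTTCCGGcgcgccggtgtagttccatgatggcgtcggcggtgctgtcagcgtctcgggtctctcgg
Cox7a1 promoter: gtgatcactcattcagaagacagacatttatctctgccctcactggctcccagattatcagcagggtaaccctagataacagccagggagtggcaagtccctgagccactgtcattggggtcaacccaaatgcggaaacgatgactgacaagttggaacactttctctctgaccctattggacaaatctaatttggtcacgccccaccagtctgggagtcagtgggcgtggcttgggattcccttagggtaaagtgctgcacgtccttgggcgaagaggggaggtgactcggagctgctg
Cox7a2 promoter: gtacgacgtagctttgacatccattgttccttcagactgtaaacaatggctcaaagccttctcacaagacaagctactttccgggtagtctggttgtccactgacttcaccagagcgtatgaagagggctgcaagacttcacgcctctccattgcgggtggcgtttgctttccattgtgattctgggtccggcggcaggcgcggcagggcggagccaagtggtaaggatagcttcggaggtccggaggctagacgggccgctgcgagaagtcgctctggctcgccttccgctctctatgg
They lie at chr5:115348909-115349208 on the minus strand, chr7:30183921-30184220 on the plus strand and chr9:79759804-79760103 on the minus strand. Cox6a1 holds the NRF1 letters from -162 to -154 and, overlapping them on the other strand, from -161 to -153, and the ETS letters from -16 to -10. The Cox7a1 and Cox7a2 windows hold none of the 4 motifs. The Cox7a1 window has 7 CpG pairs, against 32 in Cox6a1 and 20 in Cox7a2.

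Among the 75 member promoters, 8 held the NRF1 letters, against 1.75% of all 32851 promoters of the table. The ETS letters were in 21.3% against 8.86%, the YY1 letters in 17.3% against 4.05% and the E box in 12% against 7.15%. Members with the NRF1 letters included Atp5g2, Atp5l, Atp5k, Ndufa8, Ndufa11, Uqcrc1 and Uqcr11 beside Cox6a1. The median GC content was 57.3% for members and 52.7% for all promoters, with medians of 19 and 7 CpG pairs. These are counts of letters in a window and describe no binding in islets.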

How the data were processed

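Islet RNA of 4 groups was labelled with Cy3 (Low input Quick Amp kit) and hybridised to 4 one-colour Agilent arrays of 1 slide, 1 per group. The deposited values are scanner intensities, background-subtracted by Feature Extraction, whose version is 10.7.1.1 per the file headers and 9.5.1.1 per the submitters' processing notes. A deposited table of processed intensities (the series matrix) was quantile-normalized, with equal column medians of 25.9, as found by comparison with the scanner values, and served as an alternative. From each array log2 of the processed intensity was taken, spots of a probe were averaged without flagged spots, and log2 of the 75th percentile over non-control spots was subtracted. That percentile was 410 for male WT and 294 for female Tg, and 230 and 337 for transgenic males without and with the implant. The arrays had 49.9% to 54.8% of spots well above background and no saturated spot. Depth cannot be stated for arrays, and the number of arrays limits the precision.

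Each gene was read by its probe of highest mean level, and 29 of 85 members have several probes. All 85 members matched the RefSeq table by transcript accession or, failing that, by name or synonym, and 4 have another current symbol. With 1 array per group no test was made. Calls needed a 2-fold difference between probes well above background on both arrays. The rule for named genes takes all members of isoform sets, members called in a comparison, the member with the largest difference in each direction per complex and comparison, the 4 Sdh genes, 16 core subunits, and called genes of the other lists. Other genes named (such as Cycs, Cyc1, Tfam, Nrf1, Esrra, the carriers and the cell markers) were chosen after their values were seen. The values of 1 member are not reported here, though it is in the counts. The lists of other genes (subunits with other names, assembly factors, carriers, regulators, mitochondrially encoded genes, hypoxia response, cell type markers) and the members were chosen with earlier results of these data known. Alternatives were quantile normalization, centring on the median of all genes, normexp (offset 50, limma 3.58.1 in R 4.3.3), the series matrix, no background filter, genes above the array median, the mean over all probes and thresholds of 1.5-fold and 4-fold. Leaving out 8 tissue isoforms and 3 genes that are not subunits was added after seeing the data. Python 3.11.15, numpy 2.4.6 and pandas 2.3.3 were used.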

Additional observations from a re-analysis of the deposited data

How the results depend on the processing

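No paired analysis was possible because each group has 1 array. In male Tg over male WT the members at least 2-fold higher numbered 1, and 2 after centring on the median of all genes, without the background filter or with the mean over all probes, 5 at 1.5-fold, 0 at 4-fold and 0 without tissue isoforms and genes that are not subunits. Those at least 2-fold lower numbered 2, and 1 under quantile normalization, centring, the series matrix, the mean over all probes, the 4-fold threshold or without tissue isoforms, and 4 at 1.5-fold. In male Tg E2 over male Tg the 1 higher became 0 at 4-fold or without tissue isoforms, and the 1 lower became 2 with the mean over all probes, 3 at 1.5-fold and 0 at 4-fold or without tissue isoforms. In female Tg over male Tg the 1 higher became 2 at 1.5-fold and 0 without tissue isoforms, and the 1 lower became 2 after centring, 8 at 1.5-fold and 0 without tissue isoforms. In male Tg E2 over male WT the 0 higher became 2 without the background filter, and the 1 lower became 2 at 1.5-fold and 0 without tissue isoforms. The member median in male Tg over male WT was 0.18 after centring, which subtracts the median of all genes by construction. Otherwise the causes were not tested. Cox6a2 and Cox7a1 kept their direction in each setting and comparison, with -4.03 to -3.77 and 1.54 to 1.92 in male Tg over male WT. The sign of a small difference was not settled: under the 4 other scalings 41 of 82 members turned sign between male Tg and male WT, 26 of 83 between male Tg E2 and male Tg, 27 of 82 between female and male Tg, and 28 of 82 between male Tg E2 and male WT. Of members beyond 2 scanner errors, 1 turned, Cox6a1 in female Tg over male Tg. Of 28 members with several measured probes, 23 had probes of 1 sign in male Tg over male WT.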

Other observations

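Genes of the hypoxia response, which include switches from respiration to lactate, differed far more than the subunits. In male Tg over male WT, 5 of 10 measured genes of this list exceeded 2-fold upwards, against 15.5% of all measured genes, and 2 downwards, against 9.05%. Ldha, which makes lactate, read 4.22 on male WT, 6.51 on male Tg, 4.83 on male Tg E2 and 4.68 on female Tg. Higd1a, an inner membrane protein that binds complex IV, read 2.20, 4.52, 3.68 and 4.08. Car9, a carbonic anhydrase, read -1.31, 1.88, 0.78 and -1.99. Vegfa, which drives vessel growth, and Bnip3, which marks mitochondria for removal, went the other way, with differences of -1.51 and -1.44. The lists do not say whether oxygen supply differed, and acinar, stromal and immune markers were higher on male Tg too.

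Some probes did not agree within a gene. Ndufb11 had 2 bright probes at -0.23 and -0.30 in male Tg over male WT and a dim one at -1.04. For Ndufv3 in female Tg over male Tg the probes gave 0.23, 0.21 and -1.51, the last from the dimmest probe. Of the 3 Atp5k probes, the annotation places 2 on chromosome Y of mm9, and on the female array they read 5.04 and 4.71. The Cox5b probe used is placed on chromosome 15 and the other on chromosome 1, and they gave 0.26 and 0.09.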
